A study of Mus musculus with 41 samples.

Results

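The enzymes that place and remove DNA methylation were followed at the mRNA level in androgenetic haploid embryonic stem cells (AG-haESCs), mouse ES cell lines whose single genome comes from a sperm head. The set holds 10 genes, taken by symbol from the 24028 gene symbols in every expression file. They are the maintenance genes Dnmt1 and Uhrf1 with the Uhrf1 paralog Uhrf2, and the de novo genes Dnmt3a, Dnmt3b and Dnmt3l. The erasers Tet1, Tet2 and Tet3 and the glycosylase gene Tdg complete the set. All 10 were listed, each on 1 row per library, so no rows had to be summed. The study asked whether a change of culture medium lets such cells keep their paternal imprints, and 13 RNA-seq libraries were analysed here.

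All cells were of the C57BL/6 strain and grown with LIF on feeder cells made from mouse embryonic fibroblasts, and haploid cells were enriched by flow cytometry. The 2i/L medium contained serum, 1 µM PD0325901 (a Mek1/2 inhibitor) and 3 µM CHIR99021 (a Gsk3 inhibitor). SF/a2i/L was free of serum and held 1.5 µM CGP77675 (a Src inhibitor) with 3 µM CHIR99021. TSa2i/L names the protocol in which lines were derived in serum-containing a2i/L and then kept in SF/a2i/L. The wild-type line 2i-14 was sequenced in 2i/L at passages p18, p39 and p50, the wild-type line TSa2i-14 in TSa2i/L at passages p22, p47 and p54, and a second wild-type line there, TSa2i-C57, at p9 and p58. The study lists TSa2i-14 as C57BL/6 with actin-EGFP and TSa2i-C57 as C57BL/6. The line 2i-O48 lacked the H19-DMR and the IG-DMR, and 2i-O48-TKO lacked the H19 gene as well. The lines 2i-O48 and 2i-O48-TKO each gave 1 library in 2i/L. Each of the lines first kept in 2i/L gave 1 further library after 5 passages in SF/a2i/L, called switched here. The labels give no passage for the DMR-deleted or the switched cultures.

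Libraries of a line are different passages of that line, so p-values measure the spread between these cultures and not between independently derived lines. All wild-type 2i/L libraries came from 2i-14, and medium and line cannot be told apart in the comparison of TSa2i/L with 2i/L.

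DNA methylation is copied onto the new strand after replication by DNMT1, which UHRF1 brings to hemimethylated sites. UHRF2 is a paralog of UHRF1. DNMT3A and DNMT3B methylate unmodified sites, and DNMT3L is a partner without catalytic activity that stimulates them. TET enzymes oxidise the methyl group, and TDG removes the more oxidised bases so that base excision repair can restore an unmethylated cytosine. Mouse ES cells are known for high Tet1 and Dnmt3l mRNA and for low genome methylation in medium with a Mek inhibitor.

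No member passed the test in any comparison, and several of the intervals were wide. 4 members had an unadjusted p under 0.05 in 1 comparison each: Dnmt3a and Tet2 between the media, Tet1 in the switch of medium and Uhrf2 between genotypes. Their promoters are shown for that reason, as the 250 bases before the RefSeq start site in build GRCm38.p6, 5′ to 3′. They lie at chr10:62887325-62887574 on the minus strand for Tet1, chr3:133544391-133544640 on the minus strand for Tet2, chr12:3891494-3891743 on the plus strand for the internal start of Dnmt3a, and chr19:30030263-30030512 on the plus strand for Uhrf2. Capitals mark a GC box, GGGCGG on either strand.
Tet1: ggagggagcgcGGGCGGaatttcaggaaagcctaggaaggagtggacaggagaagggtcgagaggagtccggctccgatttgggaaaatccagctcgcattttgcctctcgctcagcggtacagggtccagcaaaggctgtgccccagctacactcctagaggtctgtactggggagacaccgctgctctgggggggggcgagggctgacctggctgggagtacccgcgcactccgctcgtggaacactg
Tet2: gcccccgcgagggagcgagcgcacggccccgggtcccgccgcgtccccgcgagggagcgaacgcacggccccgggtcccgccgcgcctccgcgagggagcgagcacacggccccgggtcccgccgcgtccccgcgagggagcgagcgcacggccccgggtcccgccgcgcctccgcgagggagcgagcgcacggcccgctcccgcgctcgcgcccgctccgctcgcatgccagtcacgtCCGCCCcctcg
Dnmt3a: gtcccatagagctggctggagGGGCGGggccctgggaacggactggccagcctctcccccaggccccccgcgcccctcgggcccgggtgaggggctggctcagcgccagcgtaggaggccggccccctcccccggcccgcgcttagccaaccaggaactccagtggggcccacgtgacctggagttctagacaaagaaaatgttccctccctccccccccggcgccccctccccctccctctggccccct
Uhrf2: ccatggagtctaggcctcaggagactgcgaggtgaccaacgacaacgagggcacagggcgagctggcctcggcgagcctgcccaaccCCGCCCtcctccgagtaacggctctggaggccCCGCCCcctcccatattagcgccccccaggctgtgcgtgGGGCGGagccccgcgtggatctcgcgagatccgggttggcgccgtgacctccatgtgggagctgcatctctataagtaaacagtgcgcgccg
The Tet2 window held 51 CpG sites, the Uhrf2 window 23, and the Tet1 and internal Dnmt3a windows 15 each, against a median of 6 over 32851 mouse promoter windows of this length. The upstream Dnmt3a windows, which are not printed, held 38 and 40. Expression was given per gene and not per start site. All 10 members matched the RefSeq promoter table, with 17 start sites. A GC box was found in 12 of these 17 windows, from 9 members, and in 32.7% of all windows. A CCAAT box (CCAAT) was found in 6 of the 17, from Dnmt1, Uhrf1, Tet3 and Tdg, and in 33.8% of all windows. The E2F motif TTTCGCGC was found in 2 of the 17, from the maintenance pair Dnmt1 and Uhrf1, and in 0.256% of all windows. The PRDM14 motif GGTCTCTAA was found in no member's window and in 0.240% of all windows. Both strands were searched, and no match of these motifs overlapped a match of another in the members' windows. A match is a description of the letters only.

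The 13 libraries had implied depths of 12700000 to 20000000 fragments, estimated from the smallest FPKM values, and 9258 to 10320 genes reached an FPKM of 1. FPKM scales the fragments of a gene to its transcript length and to the depth of the library, so levels can be set side by side between genes. 3 fragments on a transcript of 1 kb correspond to 0.150 to 0.236 FPKM, which covers counting error only. All 10 ES cell markers (such as Pou5f1, Sox2 and Nanog) were above 1 FPKM in every library, and none of 6 primitive endoderm markers reached 1 FPKM in any. Of 6 trophoblast markers 1 to 3 reached 1 FPKM per library, and their summed level was 4.47 to 6.51 FPKM in the 3 switched libraries, below the 8.15 to 15.7 of all 5 libraries in 2i/L, while TSa2i/L libraries had 5.80 to 13.04. Most of this sum was Tfap2c in every library. Tfap2c was at 3.50 to 6.23 FPKM in the switched libraries and at 6.22 or more in 2i/L. Gata3 was at 0 to 0.0469 FPKM after the switch and at 0.245 or more in 2i/L. Cdx2, Hand1 and Elf5 were below 1 FPKM in every library. The sum thus mainly follows 1 gene and does not measure trophoblast cells. The part of this difference in the results of the switch was not tested. Of 15 fibroblast markers, 1 to 10 were at or above 1 FPKM per library in wild-type 2i/L and 1 to 11 in TSa2i/L, with summed levels of 2.42 to 62.4 and 2.35 to 139 FPKM. The libraries highest in them were TSa2i-14 p54, 2i-14 p39 and TSa2i-C57 p58. In the DMR-deleted and switched libraries their sum was 1.98 to 3.63 FPKM, and Col1a2, Col3a1, Col6a1, Postn and Twist2 were listed at 0 in both DMR-deleted 2i/L libraries. H19, deleted in 2i-O48-TKO, was at 0 to 0.125 FPKM in the 10 libraries other than TSa2i-14 p22 (0.210), TSa2i-14 p54 (2.88) and TSa2i-C57 p58 (0.818), so its level does not check the deletion. In bulk libraries fewer cells of a type and less RNA per cell cannot be told apart.

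Gene positions are given in build NCBIM37 (mm9). The maintenance genes and Uhrf2 lie at chr9:20711650-20757317 (Dnmt1, minus strand), chr17:56442744-56462909 (Uhrf1, plus) and chr19:30105003-30168212 (Uhrf2, plus). The de novo genes lie at chr12:3806007-3914443 (Dnmt3a, plus), chr2:153475186-153513466 (Dnmt3b, plus) and chr10:77504692-77526367 (Dnmt3l, plus). The TET genes lie at chr10:62267318-62361866 (Tet1, minus), chr3:133126643-133207354 (Tet2, minus) and chr6:83312367-83391672 (Tet3, minus), and Tdg at chr10:82092573-82113544 (plus). All are annotated as protein-coding.

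Among the maintenance genes and Uhrf2, Uhrf1 was the most abundant, at 19.5 to 46.5 FPKM with a median of 25.7 over the 13 libraries. Dnmt1 ranged from 7.11 to 12.5 FPKM with a median of 10.5, and Uhrf2 from 6.01 to 11.2 with a median of 6.95. The Uhrf1 to Dnmt1 ratio lay between 1.82 and 3.87 in every library, so Uhrf1 mRNA always exceeded Dnmt1 mRNA per length.

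Among the de novo genes Dnmt3l dominated, at 17.0 to 64.1 FPKM with a median of 34.6. Dnmt3b followed at 3.92 to 11.9 FPKM with a median of 7.24, and Dnmt3a was the lowest at 0.511 to 2.61 with a median of 1.11. Dnmt3l alone made up 70.8% to 89.3% of the summed de novo FPKM. Dnmt3b exceeded Dnmt3a by 3.92 to 10.9 times within every library. Dnmt3b has a neighbour of related sequence, and the antisense gene Dnmt3aos overlaps Dnmt3a. Reads could be credited to the other gene where the counting does not resolve them, which was not examined.

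Tet1 was the main eraser, at 5.42 to 14.6 FPKM with a median of 9.41. Tet2 ranged from 1.13 to 3.53 FPKM with a median of 2.201. Tet3 was at 0.0897 to 0.430 FPKM, or about 19.6 to 76.5 implied fragments, below 1 FPKM in all libraries, and it was left out of the tests. Tdg ranged from 0.796 to 2.25 FPKM with a median of 1.47 and has processed copies in the genome that could take part of its reads.

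**Figure D1:**
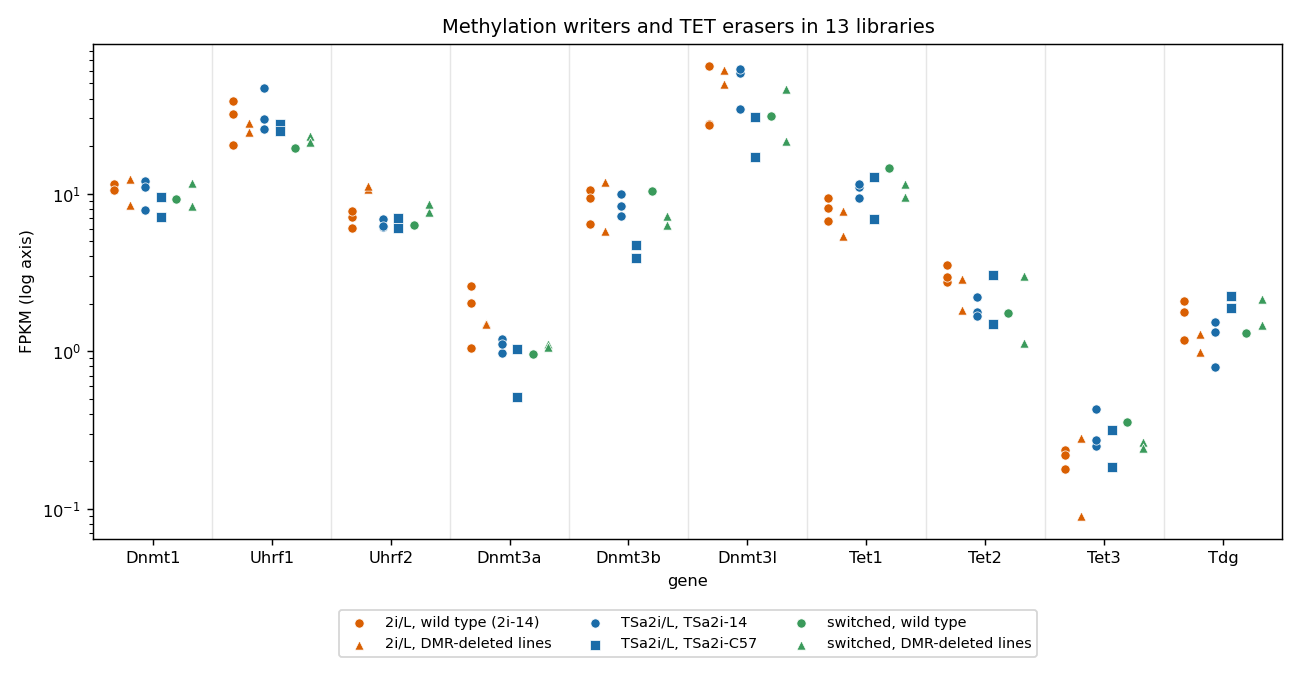
FPKM on a log axis of the 10 genes in each of 13 libraries, 1 point per library, coloured by medium and shaped by line or genotype. Dnmt3l and Uhrf1 are the 2 highest in every library and Tet3 the lowest, and for each gene the wild-type 2i/L and TSa2i/L groups overlap.

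In order of median FPKM over the 13 libraries the genes ran Dnmt3l, Uhrf1, Dnmt1, Tet1, Dnmt3b, Uhrf2, Tet2, Tdg, Dnmt3a and Tet3. The ranges of Dnmt3l (17.0 to 64.1) and Uhrf1 (19.5 to 46.5) overlapped, and so did those of the neighbours from Dnmt1 down to Uhrf2 and from Tet2 down to Dnmt3a. Tet3, at most 0.430 FPKM, did not reach the lowest Dnmt3a value of 0.511.

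The comparison of TSa2i/L with 2i/L asked how the 5 wild-type TSa2i/L libraries differed from the 3 libraries of 2i-14. None of the 9 members tested passed an adjusted p of 0.05 with limma, whereas 7.57% of the 10387 genes tested passed. An unadjusted p under 0.05 was found for 2 of the 9 and for 23.1% of all genes. Dnmt3a and Tet2, a de novo writer and an eraser, were those 2, and both were lower in TSa2i/L on average. No member separated the groups, while 16.5% of all tested genes did. The median difference of the members was -0.09 on the log2(FPKM + 1) scale, beside 0.07 over all tested genes.

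Dnmt3a stood at 2.61, 2.03 and 1.05 FPKM in 2i-14 at p18, p39 and p50. In TSa2i/L it was at 1.20, 0.979 and 1.11 FPKM in TSa2i-14, in the order p22, p47, p54, and TSa2i-C57 had 0.511 at p9 and 1.03 at p58. The 2 earlier 2i-14 passages were above every TSa2i/L library, and the p50 library lay among them. The difference was -0.53 ± 0.21 (SE) on the log2(FPKM + 1) scale, with an unadjusted p of 0.0296 and an adjusted p of 0.160. Without 2i-14 p18 it was -0.35 (unadjusted p = 0.163), and without 2i-14 p39 or TSa2i-C57 p9 the unadjusted p was 0.0920 or 0.0608. Without 2i-14 p50 it was -0.76 (unadjusted p = 0.00484, adjusted p = 0.0772). It was -0.65 with median centring (adjusted p = 0.0629), -0.70 with quantile normalization (0.0598) and -0.86 with a pseudocount of 0.1 (0.195).

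Tet2 was at 2.75, 2.94 and 3.53 FPKM in 2i-14 and at 1.79, 1.68 and 2.201 in TSa2i-14. TSa2i-C57 held the lowest and the second highest Tet2 values of these 8 libraries, 1.48 FPKM at p9 and 3.06 at p58. All TSa2i/L libraries but TSa2i-C57 p58 were below the 2i-14 range. The difference was -0.44 ± 0.20 (SE), with an unadjusted p of 0.0476 and an adjusted p of 0.210. The difference was -0.55 to -0.36 with 1 library left out, and the unadjusted p stayed under 0.05 only without TSa2i-C57 p58 (0.0125).

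Tet1 was at 9.41, 8.09 and 6.72 FPKM in 2i-14, at 11.03, 9.36 and 11.5 in TSa2i-14 and at 6.91 and 12.8 in TSa2i-C57. The 3 highest of these 8 values were all in TSa2i/L libraries, but the groups overlapped. Its difference was 0.31 on the log2 scale (95% interval -0.16 to 0.77, adjusted p = 0.441). With 1 library left out it was 0.19 to 0.43, and without the 3 libraries highest in fibroblast markers it was 0.15.

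Neither the maintenance genes nor Uhrf2 came near the threshold. The difference was -0.20 for Dnmt1 (95% interval -0.63 to 0.23), 0.03 for Uhrf1 (-0.51 to 0.58) and -0.09 for Uhrf2 (-0.45 to 0.27). With 1 library left out Dnmt1 was -0.29 to -0.11 and Uhrf2 -0.17 to -0.019. Dnmt1 differed by -0.091 with TSa2i-14 as the only TSa2i/L line. Dnmt3b differed by -0.36 (-0.97 to 0.26), Dnmt3l by 0.01 (-0.88 to 0.89) and Tdg by -0.08 (-0.56 to 0.40). With TSa2i-14 as the only TSa2i/L line the Dnmt3b difference was -0.024, and with 1 library left out it was -0.55 to -0.21. The directions of Uhrf1 and Dnmt3l flipped with median centring or quantile normalization.

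Within TSa2i/L the lines lay apart in 2 of the de novo genes. Dnmt3b was at 9.97, 8.36 and 7.24 FPKM in TSa2i-14 and at 3.92 and 4.70 in TSa2i-C57. Dnmt3l was at 57.9, 61.3 and 34.6 FPKM in TSa2i-14 and at 17.0 and 30.7 in TSa2i-C57. Both were lower in every TSa2i-C57 library, and Tdg was higher there, at 1.88 and 2.25 FPKM against 0.796 to 1.54. These were the 3 of 9 members above the filter whose values did not overlap between the lines, beside 15.9% of 10502 genes. The 2 lines, with 3 and 2 libraries, were not tested against each other. They also differ in passage and in the actin-EGFP listed for TSa2i-14.

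**Figure D2:**
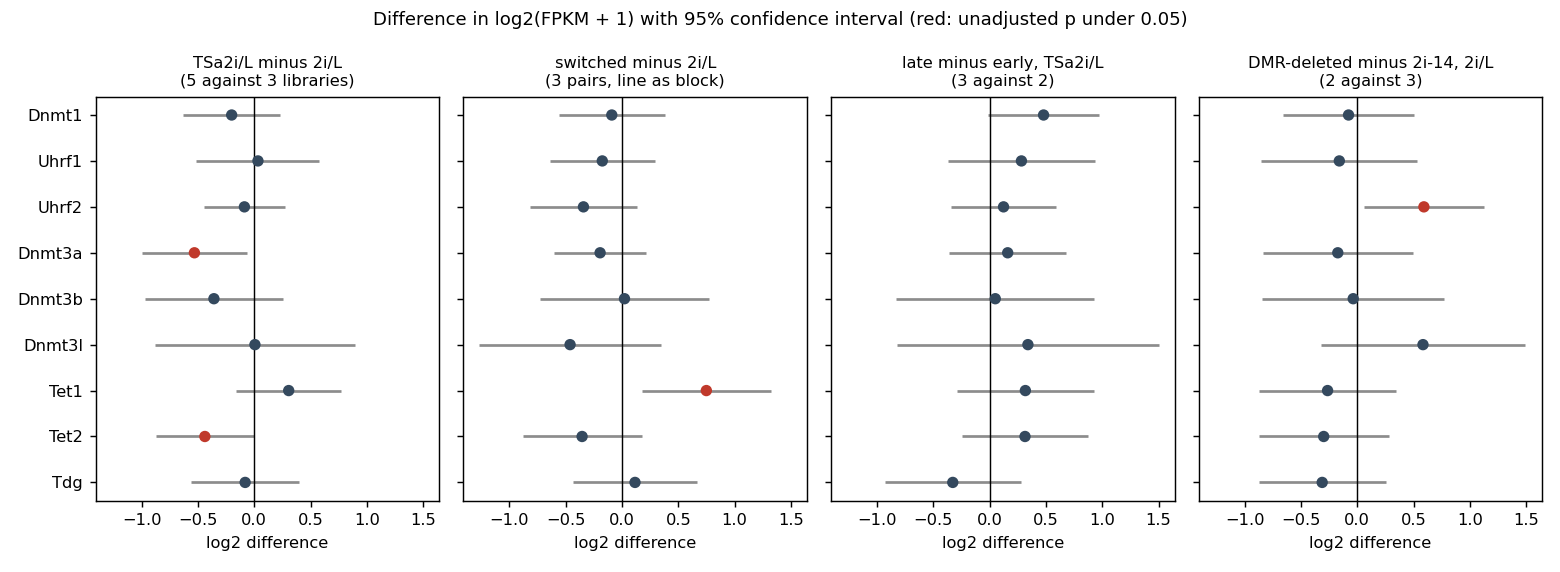
Differences in log2(FPKM + 1) of 9 members in 4 comparisons with 95% confidence intervals from limma, Tet3 being below the filter. Points in red have an unadjusted p under 0.05 (Dnmt3a and Tet2, Tet1, and Uhrf2) and all other intervals span 0.

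The switch comparison followed the 3 lines 2i-14, 2i-O48-TKO and 2i-O48 from 2i/L to SF/a2i/L. Each line was compared with itself in the fit, and 2i-14 p50 served as the wild-type start. The labels do not give the passage at which a line was switched. It shares p50 with the comparison of the media. None of the 9 members tested passed limma's adjusted p, beside 6.89% of 9759 genes that passed. An unadjusted p under 0.05 was found for 1 of the 9 and for 26.1% of all genes. That member was Tet1, which was higher after the switch in all 3 lines. 5 of the 9 members went the same way in all 3 pairs, Tet1 upward and Dnmt1, Uhrf1, Uhrf2 and Dnmt3a downward, while 48.8% of all tested genes did so.

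Tet1 went from 6.72 to 14.6 FPKM in 2i-14, from 5.42 to 11.5 in 2i-O48 and from 7.77 to 9.53 in 2i-O48-TKO. All 3 switched libraries were above all 5 libraries in 2i/L, which lay between 5.42 and 9.41 FPKM. The fitted difference was 0.75 ± 0.24 (SE) on the log2(FPKM + 1) scale (95% interval 0.18 to 1.32), with an unadjusted p of 0.0179 and an adjusted p of 0.113. It was higher than that of 95.2% of tested genes, and its adjusted p ranged from 0.0643 to 0.267 over the settings tried. Without the line 2i-14 the unadjusted p was 0.0851.

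Uhrf2 went from 7.71 to 6.28 FPKM in 2i-14, from 10.6 to 7.66 in 2i-O48 and from 11.2 to 8.65 in 2i-O48-TKO, a fitted difference of -0.34 (95% interval -0.82 to 0.13). Each line kept its rank before and after the switch. Dnmt1 differed by -0.09 (-0.56 to 0.38) and Uhrf1 by -0.17 (-0.64 to 0.29). With 2i-14 p18 or p39 in place of p50 as the start, Uhrf1 differed by -0.47 or -0.38. The direction of Dnmt1 flipped, to 0.08 with median centring and to 0.07 with quantile normalization.

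Dnmt3a, at 1.05, 1.52 and 1.48 FPKM before and 0.958, 1.11 and 1.07 after the switch, differed by -0.19 (-0.60 to 0.22), and by -0.47 or -0.38 with p18 or p39 as the start. The 3 switched libraries were closer to each other than the 3 libraries in 2i/L they were compared with. Dnmt3b was at 6.40 before and 10.4 FPKM after in 2i-14, at 11.9 and 6.30 in 2i-O48, and at 5.82 and 7.18 in 2i-O48-TKO. Dnmt3l was at 27.1 before and 31.0 after in 2i-14, at 49.7 and 46.3 in 2i-O48, and at 60.97 and 21.4 in 2i-O48-TKO. In that line it was 0.351 times its level in 2i/L. The lines did not share a direction for either gene, and without 2i-O48-TKO the Dnmt3l difference of -0.46 turned to 0.04. With p18 as the start it was -0.86 (unadjusted p = 0.0164, adjusted p = 0.0746).

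Tet2 was at 3.53 before and 1.76 FPKM after the switch in 2i-14, at 2.86 and 3.02 in 2i-O48, and at 1.82 and 1.13 in 2i-O48-TKO. Tdg was at 2.07 and 1.30 FPKM in 2i-14, at 1.30 and 2.14 in 2i-O48, and at 0.987 and 1.47 in 2i-O48-TKO. Neither gene moved the same way in all 3 lines.

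**Figure D3:**
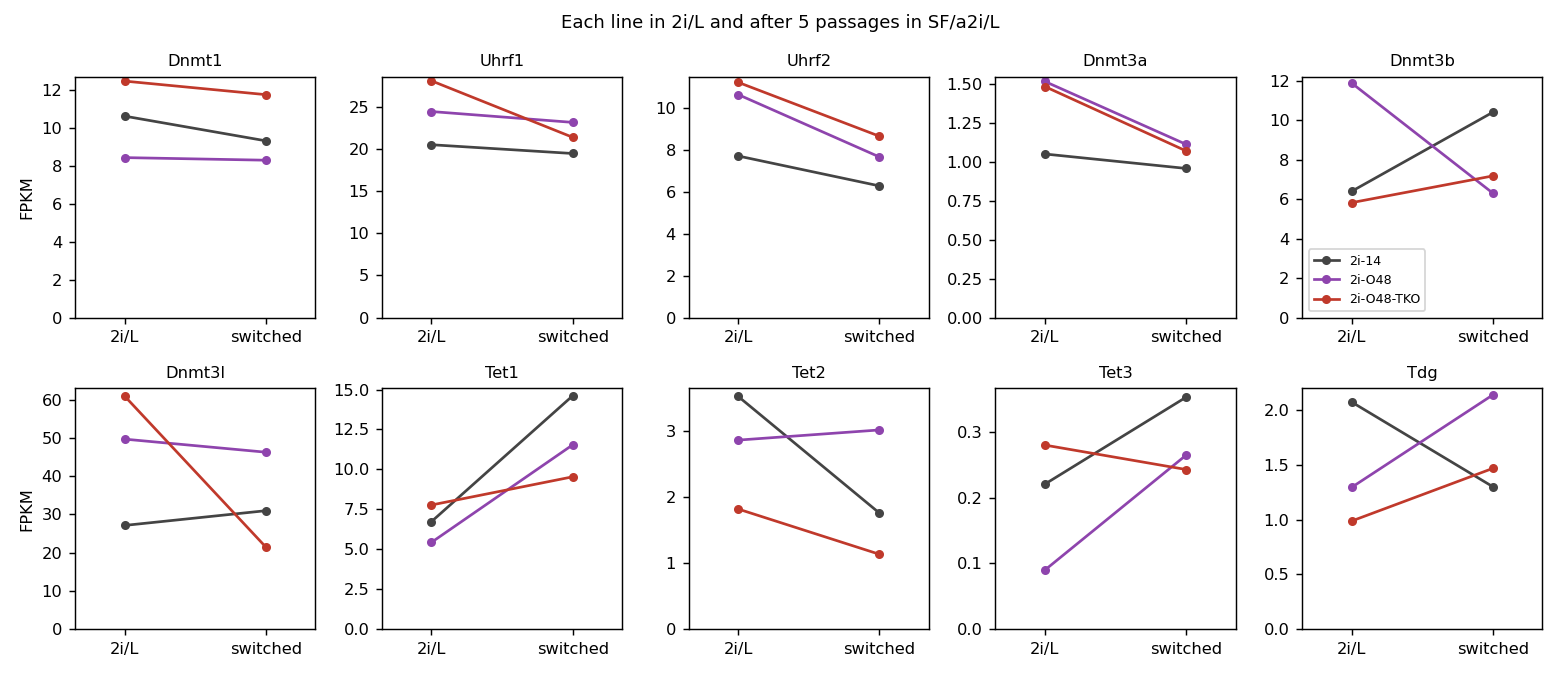
FPKM of each member in 2i/L and after 5 passages in SF/a2i/L, 1 line per cell line and a linear axis from 0 in each panel. Tet1 is higher after the switch in all 3 lines, at 9.53 to 14.6 FPKM against 5.42 to 7.77, and the lines go different ways for Dnmt3b, Dnmt3l and Tdg.

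Ratios of writers to erasers were formed within each library, where scaling between libraries cancels, and are given as a description. Maintenance stands for Dnmt1 + Uhrf1, de novo for Dnmt3a + Dnmt3b + Dnmt3l and TET for Tet1 + Tet2 + Tet3. Uhrf2 was left out of these sums. The maintenance to TET ratio was 3.97, 3.87 and 2.97 in 2i-14 at p18, p39 and p50. It was 2.57, 5.11 and 2.91 in TSa2i-14 in the order p22, p47, p54, while TSa2i-C57 had 4.04 at p9 and 2.12 at p58. The TSa2i/L values lay on both sides of the 2i/L range.

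The de novo to TET ratio was 6.23, 3.49 and 3.30 in 2i-14, 5.29, 6.16 and 3.07 in TSa2i-14, and 2.51 and 2.25 in TSa2i-C57. The groups overlapped, with medians of 3.49 (SD 1.64, n = 3) in 2i/L and 3.07 (SD 1.76, n = 5) in TSa2i/L. The order of these medians turned without the libraries highest in fibroblast markers. Without Dnmt3l the medians were 1.02 in 2i/L and 0.596 in TSa2i/L. All writers together stood at 6.27 to 10.2 times TET in 2i-14 and at 4.37 to 11.3 times in TSa2i/L.

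In the switch these 3 ratios, with Dnmt3l counted among the writers, were lower afterwards in each line. All writers to TET went from 6.27 to 4.25 in 2i-14, from 11.5 to 5.74 in 2i-O48 and from 11.03 to 5.76 in 2i-O48-TKO. Switched 2i-14 was also below 2i-14 at p18 (10.2) and p39 (7.36). The 3 switched libraries, at 4.25 to 5.76, were below all 5 libraries in 2i/L, at 6.27 to 11.5. The maintenance to TET ratio was 0.579, 0.541 and 0.739 times its level in 2i/L and the de novo to TET ratio 0.767, 0.481 and 0.393 times, in the same order of lines. The summed TET FPKM was 1.60, 1.77 and 1.11 times and the summed writer FPKM 1.08, 0.887 and 0.577 times its level in 2i/L. The lower ratio thus came with more TET mRNA in 2i-14 and 2i-O48, and mainly with less writer mRNA, chiefly Dnmt3l, in 2i-O48-TKO. The picture depended on Dnmt3l. Without it the de novo to TET ratio was 0.955 times its level in 2i/L in 2i-14, 0.313 times in 2i-O48 and 1.02 times in 2i-O48-TKO, with no shared direction. All writers to TET without Dnmt3l was still lower in each line (0.652, 0.475 and 0.782 times), but switched 2i-O48-TKO, at 3.79, lay above 2i-14 p50, at 3.68. 5 of the 11 ratios formed were lower in all 3 lines, and all 5 hold Tet1 in the denominator. Tet3 to Tet1 and Tdg to TET, which hold it too, went different ways in the 3 lines.

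Tet1 was 75.9%, 72.2% and 64.2% of the summed TET FPKM in 2i-14 and 79.2% to 84.4% in the 5 TSa2i/L libraries. The Tet2 to Tet1 ratio was 0.292, 0.363 and 0.525 in 2i-14, and 0.162 to 0.239 with a median of 0.191 in TSa2i/L. It was the only one of the 11 ratios whose groups did not overlap between TSa2i/L and wild-type 2i/L, which is a description, beside 16.5% of single genes in the same comparison. It was also lower after the switch in each line, 0.525 and then 0.120 in 2i-14, 0.529 and then 0.262 in 2i-O48, and 0.234 and then 0.119 in 2i-O48-TKO. The 2i-O48-TKO library in 2i/L, at 0.234, lay inside the TSa2i/L range, so the media did not separate over all lines.

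The Dnmt1 to Tet1 ratio was above 1 in all 5 libraries in 2i/L, at 1.11 to 1.60, and between 0.637 and 1.29 in the 8 libraries in TSa2i/L or after the switch, with a median of 0.847. Of these 8, TSa2i-14 p47 (1.29) and switched 2i-O48-TKO (1.23) lay inside the 2i/L range. The Dnmt3b to Dnmt3a ratio was 4.04 to 6.09 in 2i-14 and 4.56 to 8.54 in TSa2i/L.

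**Figure D4:**
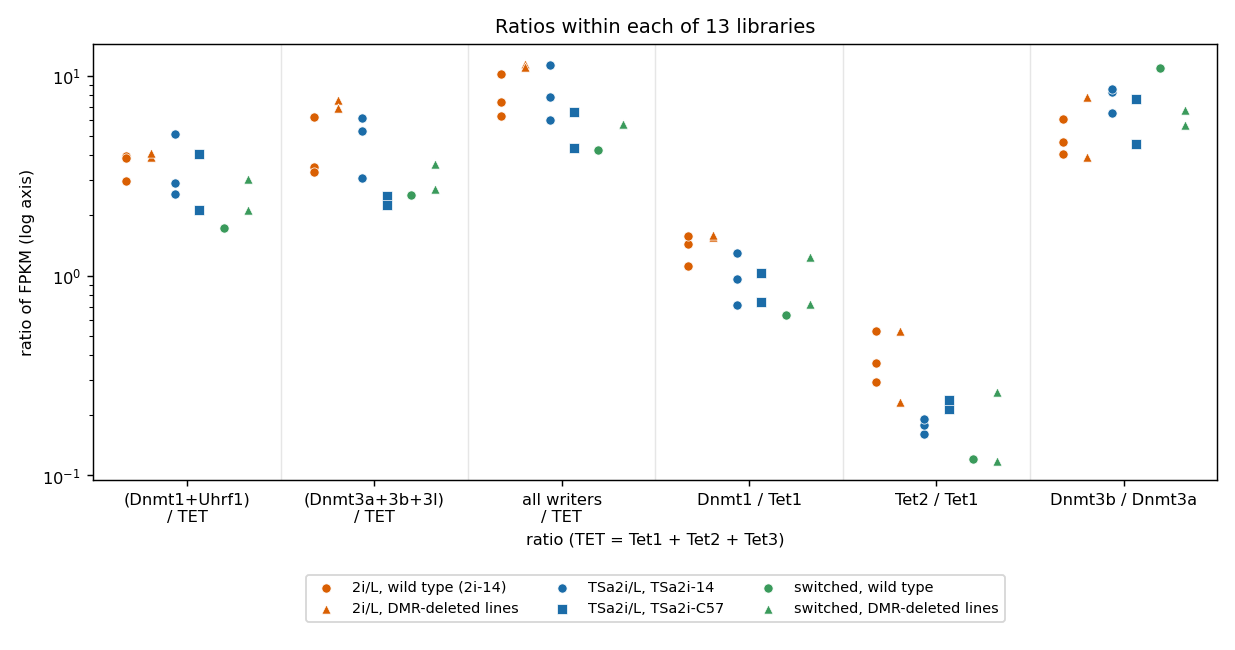
6 ratios of FPKM within each of 13 libraries on a log axis, 1 point per library. The Tet2 to Tet1 ratio separates wild-type 2i/L (0.292 to 0.525) from TSa2i/L (0.162 to 0.239), and all writers to TET, Dnmt3l included, is lower in each switched library than in any 2i/L library.

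Passages were compared within TSa2i/L, where 3 late libraries (TSa2i-14 p47 and p54, TSa2i-C57 p58) were set against 2 early ones (TSa2i-14 p22, TSa2i-C57 p9). No member passed the adjusted p of limma and none had an unadjusted p under 0.05. Of 10502 genes 0% passed, with 928 (8.84%) at an unadjusted p under 0.05. Dnmt1 and Uhrf2 were the 2 of 9 members that were higher in each late library than in both early ones, beside 28.2% of all tested genes whose groups did not overlap.

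Dnmt1 was at 7.85 and 7.11 FPKM in the early libraries and at 12.1, 11.01 and 9.47 in the late ones. It was higher at late passage in both lines. The difference was 0.48 on the log2 scale (95% interval -0.01 to 0.97, unadjusted p = 0.0553, adjusted p = 0.564). Uhrf2 was at 6.14 and 6.01 FPKM early and at 6.93, 6.27 and 6.95 late, a difference of 0.12 (-0.34 to 0.59) that turned to -0.02 with quantile normalization.

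For Dnmt3l and Tet1 the early libraries of the lines lay apart. Dnmt3l was at 57.9 FPKM in TSa2i-14 p22 and 17.0 in TSa2i-C57 p9, and the difference of 0.34 had an interval from -0.83 to 1.50. Tet1 was at 11.03 and 6.91 FPKM early and at 9.36, 11.5 and 12.8 late. In TSa2i-C57 alone Tet1 was 6.91 FPKM at p9 and 12.8 at p58, and in TSa2i-14 it was 11.03 at p22, 9.36 at p47 and 11.5 at p54. In 2i/L the 2i-14 libraries gave Dnmt3a at 2.61, 2.03 and 1.05 FPKM, Uhrf1 at 38.7, 31.8 and 20.5 and Tet1 at 9.41, 8.09 and 6.72 at p18, p39 and p50. Of the 9 members that reached 1 FPKM in a 2i-14 library, 5 were lower at each later passage, these 3 with Dnmt3b and Dnmt3l, beside 26.8% of 10571 genes. Uhrf2, at 6.05, 7.08 and 7.71 FPKM, and Tet2, at 2.75, 2.94 and 3.53, were the 2 that were higher at each later passage, beside 14.2% of genes. With 1 library per passage no test was made.

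The genotype comparison set 2i-O48 and 2i-O48-TKO against the 3 libraries of 2i-14, all in 2i/L. It used the same 2i-14 libraries as the comparison of media. None of the 9 members tested passed limma's adjusted p, while 0.118% of 10164 genes passed. An unadjusted p under 0.05 was found for 1 of the 9 and for 5.79% of all genes. Uhrf2 was that member and the only one of the 9 that separated the groups, beside 19.6% of all genes. It was at 10.6 FPKM in 2i-O48 and at 11.2 in 2i-O48-TKO, against 6.05, 7.08 and 7.71 in 2i-14. The difference was 0.59 ± 0.23 (SE) on the log2 scale, with an unadjusted p of 0.0335 and an adjusted p of 0.762. With 1 library left out it was 0.51 to 0.66, and the unadjusted p stayed under 0.05 only without 2i-14 p50 (0.0370). After the switch the order remained, with 7.66 and 8.65 FPKM in the deleted lines and 6.28 in 2i-14.

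Dnmt3l was at 49.7 and 60.97 FPKM in the deleted lines, against 64.1, 27.7 and 27.1 in 2i-14, a difference of 0.58 (95% interval -0.32 to 1.49). It was 0.98 without 2i-14 p18 (unadjusted p = 0.00546, adjusted p = 0.435), 0.38 without 2i-14 p50 and 0.39 without 2i-14 p39. The highest value belonged to 2i-14 p18, so the groups overlapped. Dnmt3b was at 11.9 FPKM in 2i-O48 and at 5.82 in 2i-O48-TKO, on both sides of the 2i-14 range of 6.40 to 10.5. Dnmt1 likewise was below the 2i-14 range of 10.5 to 11.6 FPKM in 2i-O48 (8.42) and above it in 2i-O48-TKO (12.5). Tet1 was at 5.42 and 7.77 FPKM in the deleted lines and differed by -0.26 (-0.87 to 0.35), or by -0.49 to -0.039 with 1 library left out. The deleted lines differ from 2i-14 in line as well as genotype, which cannot be told apart.

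Genes that work with these enzymes were read from a list of 45, all of which were in the files. Between the media 4 of the 41 that could be tested passed the adjusted p of limma, 2 higher and 2 lower in TSa2i/L, 1 of the 2 higher being Neil2, which passed the filter only through TSa2i/L, beside 5.72% and 1.85% of all genes in those directions. In the switch 5 of 37 passed, 1 higher and 4 lower, beside 2.22% and 4.66% of all genes. 0 of 41 passed between passages with limma and 0 of 38 between genotypes, where 5 and 2 genes had an unadjusted p under 0.05. The calls fell among factors that control the de novo enzymes, TET partners and cofactor enzymes, and base excision repair. None of the 6 partners of maintenance methylation, of the tested methyl-CpG binding proteins (6 and 3) or of the 6 tested methyl donor genes passed in either comparison. At an unadjusted p under 0.05 the whole list held 11 of 41 genes between the media and 14 of 37 in the switch, beside 23.1% and 26.1% of all genes. Of these, the 3 groups without a call held 2, 0 and 1 genes between the media and 2, 1 and 3 in the switch, and the 3 groups with calls held 2, 3 and 3 and then 3, 3 and 2.

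Gadd45a, a stress-inducible gene linked to active demethylation, rose in both. It was at 12.5, 13.9 and 15.5 FPKM in 2i-14 and at 34.6 to 47.5 in the 5 TSa2i/L libraries, with no overlap. The difference was 1.40 ± 0.17 (SE; adjusted p = 0.000880), and the call held under all 15 other settings, including without the libraries highest in fibroblast markers. After the switch it went from 15.5 to 58.9 FPKM in 2i-14, from 8.10 to 46.3 in 2i-O48 and from 9.66 to 30.4 in 2i-O48-TKO (difference 1.93 ± 0.23, adjusted p = 0.0118).

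Prdm14, a pluripotency factor known to repress de novo methyltransferase genes in ES cells, fell in both. It was at 20.6 to 24.5 FPKM in 2i-14 and at 7.74 to 16.1 in TSa2i/L (difference -0.97 ± 0.22 (SE), adjusted p = 0.0238). It went from 23.5 to 9.54 FPKM in 2i-14 on the switch, from 39.5 to 11.3 in 2i-O48 and from 23.4 to 9.43 in 2i-O48-TKO (difference -1.39 ± 0.21, adjusted p = 0.0203). The groups did not overlap in either comparison, while Dnmt3a, Dnmt3b and Dnmt3l did not pass the test in either. The first call was lost without TSa2i-14 p47, TSa2i-14 p54 or any of the 2i-14 libraries (adjusted p 0.0513 to 0.0725), and with TSa2i-14 as the only TSa2i/L line (0.0539). Without the 3 libraries highest in fibroblast markers the difference was -1.08 and the adjusted p 0.134, with fewer libraries in the fit. The second was lost without 2i-O48-TKO (0.0741).

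Idh1 and Idh2 encode isocitrate dehydrogenases, which make the alpha-ketoglutarate that TET enzymes use. Idh1 was at 121 to 207 FPKM in 2i-14 and at 75.5 to 107 in TSa2i/L (difference -0.82, adjusted p = 0.0251), and fell by 1.19 on the log2 scale in the switch (adjusted p = 0.0194). Idh2 fell by 0.91 in the switch (adjusted p = 0.0331). The Idh1 calls were lost without 2i-14 p18, 2i-14 p50, TSa2i-14 p47 or TSa2i-14 p54 between the media (adjusted p 0.0525 to 0.0954), with TSa2i-14 as the only TSa2i/L line (0.0643) and without 2i-O48-TKO in the switch (0.103). Without 2i-O48-TKO the Idh2 call was lost as well (0.289).

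Of the glycosylase genes of base excision repair, Ung fell in the switch and Neil2 passed the test between the media. Ung went from 25.3 to 13.4 FPKM in 2i-14, from 62.6 to 18.8 in 2i-O48 and from 41.5 to 16.0 in 2i-O48-TKO (difference -1.29, adjusted p = 0.0291, lost without 2i-O48-TKO at 0.135). Neil2 was at 0.259 to 0.497 FPKM in 2i-14 and at 0.754 to 3.14 in TSa2i/L (difference 1.06, adjusted p = 0.0342). All 3 libraries of 2i-14 were below the filter of 1 FPKM, so Neil2 was tested only through the group where it is high, and with no filter its adjusted p was 0.105. The Neil2 call was lost without any of the 2i-14 libraries or without TSa2i-14 p47, TSa2i-14 p54 or TSa2i-C57 p58 (adjusted p 0.0616 to 0.109), and with quantile normalization (0.0550). It was also lost without the 3 libraries highest in fibroblast markers (adjusted p 0.196), where the difference was 0.99, with fewer libraries in the fit.

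With no filter on low FPKM, Gadd45a was the only one of the 4 calls between the media that held (adjusted p = 0.00564), and none of the 5 calls of the switch did (0.143 to 0.149). The Idh2 call was lost with median centring (0.0580) and without the block on the line (0.0582). Without the libraries highest in fibroblast markers the Idh1 difference between the media was -0.96 and its adjusted p 0.0802, with fewer libraries in the fit. No direction of these 9 calls turned under any setting run for it. Neil2 had 13 such settings and the other calls between the media 15. It was not tested with TSa2i-14 as the only TSa2i/L line or with the DMR-deleted libraries added to 2i/L.

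**Figure D5:**
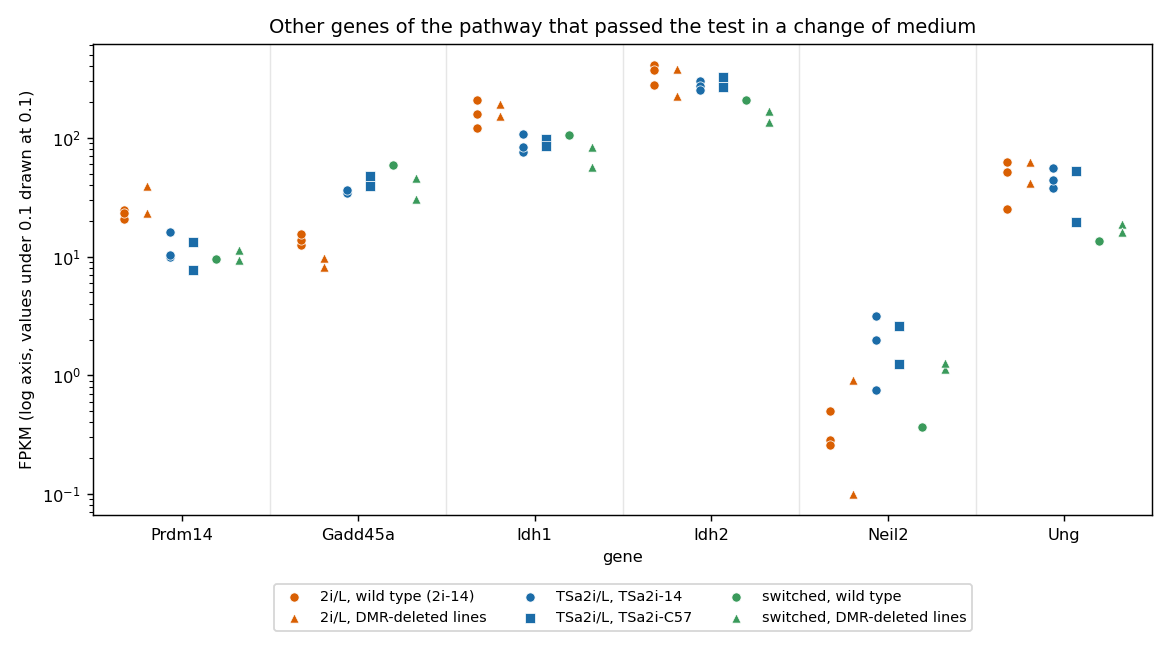
FPKM on a log axis of 6 genes that work with the writers and erasers and passed the test in a change of medium, 1 point per library. Prdm14 and Idh1 are lower, and Gadd45a higher, in every TSa2i/L library (blue) than in wild-type 2i/L (orange circles), and each switched library (green) lies beyond all 2i/L libraries in the same direction for these 3 genes.

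Across the 13 libraries, which share lines and passages, the members moved together only in part. The closest pairs in log2(FPKM + 1) were Tet1 with Tet3 (Pearson r = 0.70), Dnmt3a with Dnmt3b (0.60), Dnmt3a with Dnmt3l (0.53) and Dnmt3b with Dnmt3l (0.50), and the most opposed were Dnmt1 with Tdg (-0.57) and Uhrf2 with Tet1 (-0.52). Among 6311 other genes with a mean of at least 5 FPKM, the genes with a pattern most like Dnmt1 were Npepps (0.91), Smarca4 (0.82) and Adipor2 (0.82). For Uhrf1 they were Eif2s3x, Mov10 and Copa (0.85 each), and for Uhrf2 Gm14458 (0.91), Endog (0.91) and Gm15093 (0.90). For Dnmt3b they were Ccna2 (0.90), Etf1 (0.85) and Psmd6 (0.85), and for Dnmt3l Tdgf1 (0.84), Ogt (0.82) and Fam114a2 (0.80). For Tet1 they were Tiparp (0.89), Irgm1 (0.88) and Igtp (0.87). These are the highest of many correlations over 13 libraries and are given as a description.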

How the data were processed

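Full-length cDNA amplified from haploid cells was sequenced, and per the labels and the study's methods the reads were mapped to mm9. The submitters' processing notes name TopHat2 2.0.11, Bowtie2 2.2.2 and Cufflinks 2.2.1. The gene annotation and any scaling between libraries are not given in the sources used here. The authors deposited FPKM values with no counts, so no count model was used. The methylation and chromatin samples were not analysed here.

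Rows of a symbol were summed. log2(FPKM + 1) was fitted with limma 3.58.1 (R 4.3.3; intensity trend, Benjamini-Hochberg adjustment at 0.05, two-sided) over genes that reached 1 FPKM in a number of libraries no smaller than the smaller group. The pseudocount understates changes of low genes such as Dnmt3a, Tdg and Neil2. In the switch the cell line was a block, since both libraries of a pair come from it. Deviations of the pairs correlated at 0.17 in 2i-14, -0.14 in 2i-O48 and at 0.36 in 2i-O48-TKO. All members, the called genes among 45 pathway genes (up to 5 per comparison) and the 3 genes most like each member of at least 5 FPKM were named. The members and lists were chosen with earlier results of these data known. Promoters came from RefSeq (GRCm38.p6), and gene lengths from GENCODE vM1 (NCBIM37). The fits were also run on simulated data with independent noise in each library. Passages of a line need not vary independently, and no result given here rests on that run. The alternatives covered pseudocount, filter, scaling, block, control libraries and leaving out libraries.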

Additional observations from a re-analysis of the deposited data

Results flagged for a closer look

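Of 21 measures (10 FPKM levels and 11 ratios), 2 had a library far from the others among the 5 TSa2i/L libraries by Dixon's test, where chance marks about 1 in 20 groups, or 1.05 of 21. Uhrf1 stood at 46.5 FPKM in TSa2i-14 p47, with 0.776 of the group's range below it to the next library. The Tet3 to Tet1 ratio was 0.0460 in the same library, with a gap of 0.833 of the range, and rests on Tet3 values under 1 FPKM.

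After the switch, 2 of 10 members moved in the wild-type line against both DMR-deleted lines, about the same share as the 19.8% of 9759 genes that did so. The 10 include Tet3, which was below the filter that the 9759 genes passed. Dnmt3l differed by 0.19 on the log2 scale in 2i-14, -0.10 in 2i-O48 and by -1.47 in 2i-O48-TKO. Tdg differed by -0.42 in 2i-14, 0.45 in 2i-O48 and by 0.31 in 2i-O48-TKO. These directions use 2i-14 p50 as the start. Dnmt3l in switched 2i-14 (31.0 FPKM) was lower than at p18 (64.1) and higher than at p39 (27.7). Tdg there (1.30 FPKM) was lower than at p18 (1.77) and higher than at p39 (1.19). Neither gene thus opposed both DMR-deleted lines with every start. With 1 wild-type pair the difference between genotypes was not tested.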

How the results depend on the processing

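No member passed an adjusted p of 0.05 with limma under any of 423 settings and leave-one-out fits of a member's change, the smallest adjusted p being 0.0598, and 379 of these kept their direction. The 423 count some fits more than once. Between passages the fit without the library highest in fibroblast markers is that without TSa2i-14 p54. Between genotypes it is that without 2i-14 p39, and the fit against p39 and p50 alone is that without 2i-14 p18. FPKM values carry no counts, so depth is known only as implied, and Tet3, the lowest member, rests on 19.6 to 76.5 implied fragments per library. Of all genes, 786 passed between the media, but 374 with no filter, 229 without the 3 libraries highest in fibroblast markers, 468 with TSa2i-14 alone, 1250 with 2i-O48-TKO and 2i-O48 added to 2i/L, and 383 to 846 with 1 library left out. In the switch 672 passed, but 0 with no filter (3206 at an unadjusted p under 0.05), 1483 with 2i-14 p18 and 1522 with 2i-14 p39 as the start, and 311 to 1461 with 1 line left out. Between passages 0 passed and 0 to 8 with 1 library left out. Between genotypes 12 passed, but 0 with no filter (1014 unadjusted) and 0 to 20 with 1 library left out. The causes were not tested. Without the replicate block on the cell line 778 genes and 0 members passed in the switch, and the pairing changed no call of a member.

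Of 36 changes of a member in a comparison, 15 turned direction under at least 1 setting. Between the media Uhrf1 was -0.084 after median centring, -0.055 after quantile normalization and -0.22 to 0.23 with 1 library left out. Dnmt3l was -0.11 and -0.059 with these scalings, -0.079 without the fibroblast-marker libraries, -0.23 with the DMR-deleted libraries added and -0.20 to 0.40 with 1 left out. Tdg was 0.043 with the DMR-deleted libraries added and -0.22 to 0.039 with 1 left out. In the switch Dnmt1 was 0.075 and 0.065 with the scalings, and Dnmt3b -0.19 with p18 and -0.14 with p39 as the start. With 1 line left out Dnmt3b was -0.28 to 0.44, Dnmt3l -0.78 to 0.042 and Tdg -0.053 to 0.38. Between passages quantile normalization gave Uhrf2 -0.023, Dnmt3a -0.059 and Dnmt3b -0.070. Dnmt3b was also -0.072 with median centring, -0.0077 without the library highest in fibroblast markers and -0.092 with a replicate block on the line. With 1 library left out Dnmt3a was -0.11 to 0.43, Dnmt3b -0.53 to 0.63 and Dnmt3l -0.51 to 1.19. Between genotypes, against 2i-14 p39 and p50 alone, Uhrf1 was 0.034, Dnmt3a 0.0052 and Dnmt3b 0.096, and Dnmt3b was 0.021 without the library highest in fibroblast markers. With 1 library left out Dnmt1 was -0.33 to 0.18, Uhrf1 -0.41 to 0.034, Dnmt3a -0.40 to 0.0052 and Dnmt3b -0.49 to 0.42.

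Without Dnmt3l the median de novo to TET ratio was 1.02 in 2i/L and 0.596 in TSa2i/L, and the median of all writers to TET 4.89 and 3.51. Without the fibroblast-marker libraries the de novo to TET median was 4.77 in 2i/L and 5.29 in TSa2i/L, so the order of the media turned from 3.49 against 3.07.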
